A study of Mus musculus with 2 samples.

Results

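The BCL2 family decides whether a stressed cell keeps its mitochondria intact, and 10 of its genes were followed here in mouse T helper 17 (Th17) cells. They are the anti-apoptotic genes Bcl2, Bcl2l1 and Mcl1, the effector genes Bax and Bak1, and the BH3-only genes Bcl2l11, Bbc3, Pmaip1, Bid and Bad. The genes were taken by symbol from the 15574 genes with a read in either library. All 10 had reads in both libraries and all 10 reached a mean of 1 CPM (counts scaled to library size), as did 10462 genes in all. Naive T cells of C57BL/6 background, wildtype or labelled CREB KO, were kept for 6 days with IL-23, IL-1b, IL-6 and TGFb. Plate-bound anti-CD3 stimulation for 4 h preceded RNA extraction in both groups. CREB is a transcription factor that acts downstream of cyclic AMP, and the study set out to find genes that it regulates in Th17 cells. The sources used here do not give how Creb1 was deleted, in which cells, or how many mice gave cells; the label CREB KO is kept as a name, and "KO-labelled" refers to it.

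Anti-apoptotic family members hold the effector and BH3-only proteins in check on the outer mitochondrial membrane. Once freed or activated, the effectors BAX and BAK form pores that release cytochrome c, which sets off caspase activation. BH3-only proteins sense stress and bind the anti-apoptotic members or the effectors. In T cells the balance shifts with activation and cytokine supply: loss of growth factor raises the BH3-only protein BIM, and cytokines sustain BCL2 and MCL1.

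There was 1 library per genotype, so no p-value can be given and each difference lies between 2 libraries, not between genotypes. The totals were 23938112 reads in the KO-labelled library and 26525471 in the wildtype library. Intervals are 95% intervals for counting error only, and reads amplified by PCR are not independent molecules. Creb1 itself had 25 reads in the KO-labelled library against 13 in the wildtype library, or 1.04 against 0.491 CPM, a ratio of 2.08 (1.04 to 4.51). The count of the targeted gene does not bear out the label, but it cannot check it either. Reads were few in both libraries, and which part of Creb1 was deleted is not given. Of 9 T cell and Th17 markers, 8 had reads in at least 1 library. Their summed level was 2223 CPM in the KO-labelled library against 3456 CPM in the wildtype library. Trbc2 was at 0 in both, Il1r1 had 0 against 3 reads, and Ccr6 was at 2.42 against 2.99 CPM. The difference in that sum comes mostly from Il17f (543 against 1508 CPM) and Il17a (291 against 495 CPM). Markers of CD8 T and NK cells summed to 10.2 and 9.53 CPM, myeloid markers to 9.29 and 10.1 CPM, and B cell markers to 2.21 and 2.04 CPM. Most of these sums came from Cd8b1 (9.75 and 8.96 CPM), from Cd68 (8.17 and 9.19 CPM), and from Cd79a (1.08 and 0.983 CPM) with Cd79b (1.04 and 0.983 CPM). Cd8a, Ncr1, Pax5, Ms4a1, Lyz2 and Itgam were at 0. The T cell gene Trbc2 was at 0 too, so a count of 0 here does not show absence. In bulk RNA, fewer cells of a type and less RNA per cell cannot be told apart.

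The transcripts of the effectors and of Mcl1 were the most abundant of the family, and Bcl2l11 was close to the lower end of all expressed genes. Levels between genes are compared as CPM per kilobase of exon, with library sizes scaled by trimmed mean of M-values. Bax, Mcl1 and Bak1 each lay above 95.9% or more of the expressed genes with an annotated length. Bcl2l11 lay above only 2.60% of them, Bad above 19.7% and Bid above 31.9%. The BH3-only genes spread the most among themselves, from Bcl2l11 to Pmaip1.

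The anti-apoptotic genes differed from one another in level and in the direction of the ratio between libraries. Mcl1 (chromosome 3, 95658788 to 95663176, plus strand, GRCm38) encodes a short-lived protein that restrains BAK and BIM. It had 10551 reads in the KO-labelled library and 12194 in the wildtype library, which is 129 (126 to 131) against 135 (132 to 137) per kilobase. The level was slightly lower in the KO-labelled library, by 1.05-fold (1.02 to 1.08), with the whole interval below 1. Bcl2l1 (chromosome 2, 152780668 to 152831728, minus strand) encodes BCL-XL and, through another splice site, a pro-apoptotic short form that gene counts do not separate. Its 5199 against 4994 reads gave 47.2 (46.0 to 48.5) against 41.2 (40.0 to 42.3) per kilobase. Bcl2l1 was 1.15-fold higher in the KO-labelled library (1.1 to 1.19), the largest ratio of the 3 anti-apoptotic genes. Bcl2 (chromosome 1, 106538178 to 106714274, minus strand), the founding member of the family, had 5100 against 5302 reads. That is 23.2 (22.6 to 23.9) against 21.9 (21.3 to 22.5) per kilobase, and the ratio was 1.06 (1.02 to 1.1). The 2 genes above 1 and the gene below 1 left the summed level of the class nearly equal, at 199.0 against 197.9 per kilobase.

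Both effector genes were highly expressed, and only Bax had a ratio whose interval excluded 1. Bax (chromosome 7, 45461697 to 45466898, minus strand) encodes a pore-forming protein that moves from the cytosol to mitochondria. It had 5402 against 5418 reads, or 143 (139 to 147) against 130.0 (126 to 134) per kilobase. After scaling for depth, Bax was 1.1-fold higher in the KO-labelled library (1.06 to 1.14). Bak1 (chromosome 17, 27019810 to 27029009, minus strand) encodes the effector that resides in the outer membrane. Its 6870 against 7390 reads corresponded to 119 (116 to 122) and 116 (113 to 119) per kilobase, a ratio of 1.02 (0.991 to 1.06). The Bak1 ratio is thus within counting error of 1. Its exons overlap those of Ggnbp1 on the other strand over 614 bases, but Ggnbp1 had only 18 and 19 reads.

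Among the BH3-only genes, Bbc3 stood at the fold limit of 1.2 and the other 4 had intervals that include 1. Bbc3 (chromosome 7, 16308393 to 16318205, plus strand) encodes PUMA, a p53-induced protein that binds all anti-apoptotic members. It had 1154 reads in the KO-labelled library and 1053 in the wildtype library. Per kilobase this was 22.6 (21.4 to 24.0) against 18.7 (17.6 to 19.9), 1.21-fold higher in the KO-labelled library (1.11 to 1.31). Pmaip1 (chromosome 18, 66458533 to 66465565, plus strand) encodes NOXA, which binds mainly MCL1. With 2305 against 2446 reads and 35.1 (33.7 to 36.6) against 33.8 (32.5 to 35.2) per kilobase, its ratio was 1.04 (0.981 to 1.1). Pmaip1 was the most abundant BH3-only transcript measured, and its 2 levels overlap within counting error.

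Reads were few for the remaining BH3-only genes, and no direction can be read from them. Bid (chromosome 6, 120891930 to 120916853, minus strand), whose protein caspase-8 cleaves to link death receptors with mitochondria, had 217 against 227 reads. Its level was 2.55 (2.22 to 2.91) against 2.42 (2.11 to 2.75) per kilobase and its ratio 1.05 (0.871 to 1.28). Bad (chromosome 19, 6941861 to 6951899, plus strand) encodes a protein that 14-3-3 proteins sequester when survival kinases phosphorylate it. It had 67 against 75 reads, 1.09 (0.846 to 1.39) against 1.11 (0.872 to 1.39) per kilobase and a ratio of 0.985 (0.697 to 1.39). Bcl2l11 (chromosome 2, 128126038 to 128162547, plus strand) encodes BIM, a main trigger of T cell death after cytokine loss. Only 44 against 38 reads were assigned to it, or 0.228 (0.166 to 0.306) against 0.179 (0.127 to 0.246) per kilobase. Its ratio of 1.27 (0.808 to 2.02) was the highest of the 10 genes and also the least precise. These low counts may be part of the true reads: Bcl2l11 has 5 curated RefSeq transcripts, and the median level of coding genes was 0.638 per kilobase where RefSeq lists 5 or more, against 3.61 where it lists 1. Bcl2l1 and Bbc3 go against that pattern, with 5 and 6 curated transcripts and mean levels of 44.2 and 20.7 per kilobase. Bid and Bad have 1 and 2 curated transcripts, and their exons overlap those of Bcl2l13 over 628 bases and of Gpr137 over 524 bases on the opposite strand. How far transcript number or overlap lowered these counts was not tested.

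**Figure D1:**
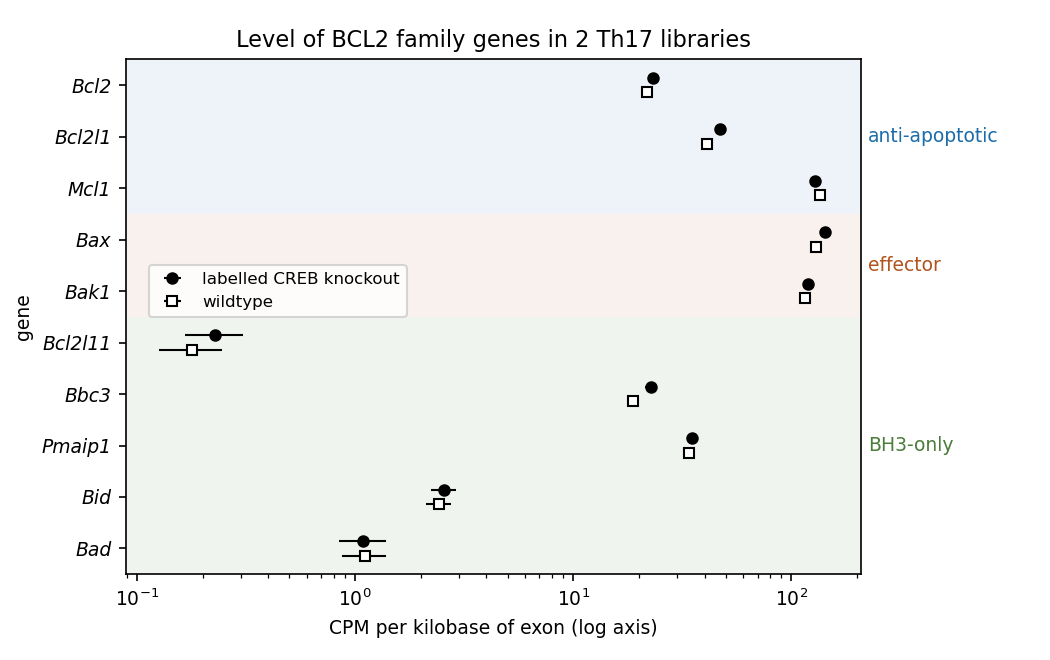
CPM per kilobase of exon (horizontal log axis) for each gene, with filled circles for the library labelled CREB knockout, open squares for wildtype and bars for 95% counting intervals. Bax, Mcl1 and Bak1 lie between 116 and 143, while Bcl2l11, the lowest, lies at 0.228 and 0.179.

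The order of levels was nearly the same in both libraries. In the KO-labelled library it ran Bax, Mcl1, Bak1, Bcl2l1, Pmaip1, Bcl2, Bbc3, Bid, Bad and Bcl2l11. In the wildtype library Mcl1 came before Bax, a pair whose counting intervals overlap there. Bcl2 and Bbc3 overlap in the KO-labelled library (23.2 against 22.6 per kilobase), and in the wildtype library they are 1.17-fold apart. All other neighbours had separate counting intervals in both libraries, which says nothing of the spread between cultures. The upper ranks depend on the length used: per kilobase of coding sequence, the mean levels were 453 for Mcl1, 451 for Bak1, 373 for Bax, 305.0 for Pmaip1, 292 for Bcl2 and 290.0 for Bcl2l1. Bid, Bad and Bcl2l11 were the lowest 3 by exon, by longest coding transcript and by coding length.

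Each class took nearly the same share of the family's summed level in both libraries. Effectors held 50.1% of it in the KO-labelled library and 49.2% in the wildtype library. Anti-apoptotic genes held 38.1% and 39.6%. The BH3-only share was the smallest, at 11.8% against 11.25%. The order of the classes depends on the length used: per kilobase of coding sequence, anti-apoptotic genes held 45.7% of the summed mean level, effectors 36.4% and BH3-only genes 17.8%. Summed levels were 1.01-fold (anti-apoptotic), 1.06-fold (effector) and 1.1-fold (BH3-only) those of the wildtype library. The BH3-only sum rests mainly on Pmaip1 and Bbc3.

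The ratios of the family clustered a little above 1. Of the 10 genes, 8 had a ratio above 1 and 2 (Mcl1 and Bad) below, with a median log2 ratio of 0.08 against -0.01 for all expressed genes. Of all expressed genes, 48.1% had a ratio above 1 and 51.9% below. The class medians were 0.08 for the anti-apoptotic, 0.09 for the effector and 0.08 for the BH3-only genes. The BH3-only median was 0.16 over Bbc3 and Pmaip1, the BH3-only genes of 10 CPM or more. Intervals lay above 1 for 4 genes (Bbc3, Bcl2l1, Bax and Bcl2), below 1 for Mcl1, and included 1 for 5. Over all 10462 expressed genes, 16.2% had an interval above 1 and 19.5% below. Intervals narrow with depth, and among genes of 10 CPM or more, which include 7 members, the shares were 18.2% above and 24.5% below.

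By the rule of 1.2-fold with an interval excluding 1, 1 gene (Bbc3) was higher and 0 were lower in the KO-labelled library. The same rule took 6.19% of all expressed genes as higher and 5.48% as lower, so 1 gene of 10 is near the background. Bbc3 lies at the limit. When reads of the deeper library were drawn at random to the depth of the other, its ratio was 1.19 and missed the rule, and over 100 further draws, added after the data were seen, it ran from 1.18 to 1.24 and met the rule in 78. At 1.1-fold, 2 genes (Bbc3 and Bcl2l1) were higher and 0 lower, against 11.5% and 12.6% of all genes, with Bax (1.099) just below that limit. At 1.5-fold there were 0 in either direction, against 2.48% and 1.5%. Of the 7215 genes with 10 CPM or more, 7.22% had a ratio at least as far from 1 as Bbc3, 15.8% as Bcl2l1, 30.7% as Bax, 51.3% as Bcl2 and 60.1% as Mcl1. Differences of the size seen for Bax, Bcl2 and Mcl1 were therefore common between these 2 libraries.

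**Figure D2:**
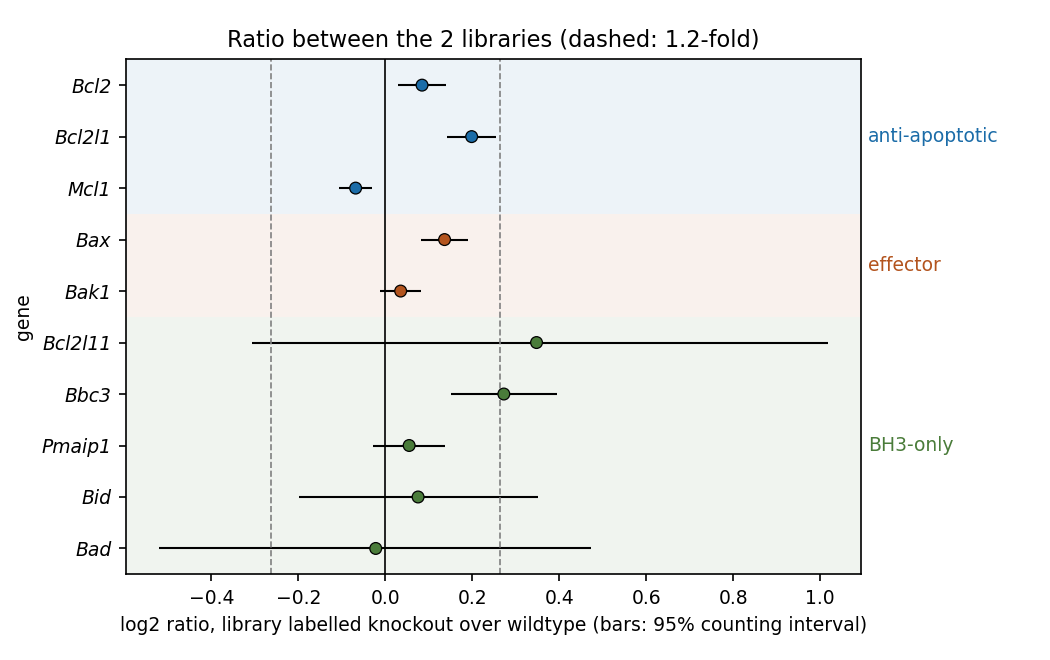
Log2 ratio of the KO-labelled library over wildtype (horizontal axis) for each gene by class, with bars for 95% counting intervals and dashed lines at 1.2-fold. Bbc3 (0.27) is the one gene at the limit whose interval excludes 0, and Mcl1 (-0.07) is the one gene with an interval below 0.

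**Figure D3:**
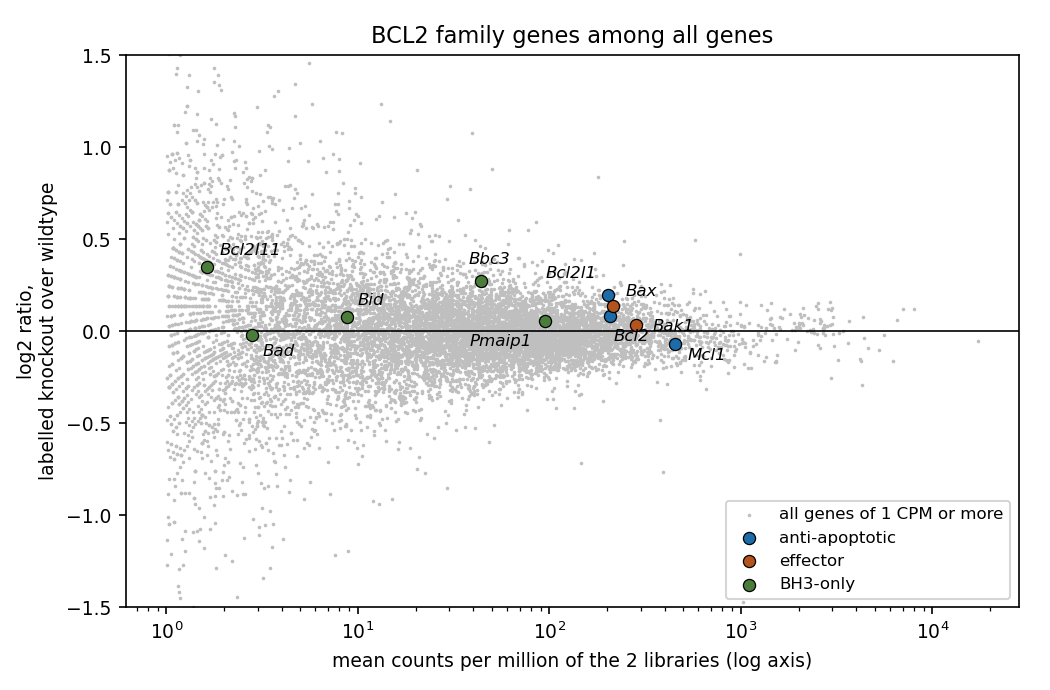
Log2 ratio (vertical axis, labelled knockout over wildtype) against mean CPM (horizontal log axis) for all 10462 expressed genes in grey and the 10 BCL2 family genes in colour. The family lies within the cloud of genes of like level; 22 genes beyond 1.5 on the vertical axis are not shown.

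Ratios of 2 genes within a library need no scaling between libraries, and here they set each anti-apoptotic gene against Bcl2l11, Bbc3 and Pmaip1. They are ratios of transcripts, and not every pair encodes proteins that mainly bind each other, since NOXA binds mainly MCL1. Of 9 such pairs, 7 had a lower anti-apoptotic to BH3-only ratio in the KO-labelled library, and 4 had an interval that excludes 1. Mcl1 stood to Bbc3 as 5.68 to 1 per kilobase in the KO-labelled library and 7.20 to 1 in the wildtype library. This was the widest of the 4 shifts, 1.27-fold lower in the KO-labelled library (1.16 to 1.38). The Bcl2 to Bbc3 ratio was 1.03 against 1.17, or 1.14-fold lower (1.04 to 1.25). The Mcl1 to Pmaip1 ratio was 3.66 against 3.98, or 1.09-fold lower (1.02 to 1.16). The Bcl2l1 to Pmaip1 ratio went the other way, 1.34 against 1.22, with a ratio of ratios of 1.1 (1.03 to 1.18). Bcl2l1 to Bbc3 gave 0.950 (0.865 to 1.04) and Bcl2 to Pmaip1 1.02 (0.952 to 1.09). The 3 pairs with Bcl2l11 had intervals that include 1, from 0.471 to 1.18 for Mcl1, because the reads of Bcl2l11 were few. The pairs share members, so they are not separate measurements, and every pair with Bcl2l11 or Bbc3 is among the 7 lower ones. The share among pairs of all genes was not computed. For single genes of 10 CPM or more, 18.2% had an interval above 1 and 24.5% below, so intervals that exclude 1 were common. A shift of the class balance cannot be read from the 7 of 9.

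Other genes of the intrinsic death pathway were taken from 7 lists of 69 genes, 60 of which reached 1 CPM. By the 1.2-fold rule 2 of the 60 were higher and 2 lower, beside 6.19% and 5.48% of all expressed genes. Counts this small cannot be told apart from that background. The median log2 ratio of the 60 was -0.01. The 2 higher genes were Bmf and Phlda3. The 2 lower genes were Vdac3 and Fbxw7, the latter named after its value was seen, with 16 against 37 reads.

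The rest of the BCL2 family went both ways. Of 16 listed genes 11 reached 1 CPM, with 1 higher and 0 lower by the 1.2-fold rule and a median log2 ratio of 0.01. Bmf, a BH3-only gene, had 89 against 61 reads and was 1.60-fold higher in the KO-labelled library (1.15 to 2.27). Bcl2l2, which encodes the anti-apoptotic BCL-W, had 709 against 667 reads, with a ratio of 1.17 (1.05 to 1.30). Bcl2l12 had a ratio of 1.16 (1.04 to 1.30) on 631 against 598 reads. Bnip3l, which encodes the mitophagy receptor NIX, was 1.12-fold lower (1.07 to 1.16) on 4241 against 5217 reads. The anti-apoptotic genes Bcl2a1b (67 against 88 reads, ratio 0.840, 0.601 to 1.17) and Bcl2a1d (63 against 82 reads, ratio 0.848, 0.600 to 1.19) are near-identical copies. Their counts are therefore uncertain.

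Downstream of the pore, no gene of the caspases and their inhibitors passed the 1.2-fold rule. It took none of 11 apoptosome and caspase genes and none of 9 genes of inhibitor of apoptosis proteins and their antagonists, and the median log2 ratios were -0.04 and -0.01. Ratios lay below 1 for 10 of the 11 and 6 of the 9 genes, against 51.9% of all expressed genes. Xiap, whose protein inhibits caspases, was 1.09-fold lower (1.02 to 1.16) on 1785 against 2146 reads. The apoptosome scaffold gene Apaf1 (18 reads in each library) and its caspase gene Casp9 (19 against 15) had too few reads for a direction. Both have 3 curated RefSeq transcripts, so these counts too may hold only part of the true reads, which was not tested.

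The genes of proteins that bind or turn over family members had ratios below 1 for 3 of 3 and 7 of 10 genes in the 2 lists, against 51.9% of all expressed genes. All 3 channel genes of the outer membrane had intervals below 1, as did 24.5% of all genes of 10 CPM or more. Vdac3 was 1.33-fold lower (1.13 to 1.57) on 246 against 361 reads, Vdac1 1.04-fold lower (1.01 to 1.07), and Vdac2, whose protein binds BAK, 1.04-fold lower (1.004 to 1.07). Of 10 measured genes of MCL1 turnover and BAD binding, 0 were higher and 1 (Fbxw7) lower by the 1.2-fold rule, with 2 intervals above 1 and 4 below. Huwe1, a ubiquitin ligase gene for MCL1, had a ratio of 1.09 (1.07 to 1.12) on 14381 against 14524 reads. The 14-3-3 genes Ywhab and Ywhaq were 1.1-fold (1.07 to 1.13) and 1.09-fold (1.06 to 1.13) lower.

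Genes of the p53 arm, which holds p53, its regulators and targets other than Bbc3 and Pmaip1, had the highest median of the 7 lists. Of 10 genes, 9 had a ratio above 1 and 1 below, 5 had an interval above 1 and 1 below, and the median log2 ratio was 0.18. Of all expressed genes, 48.1% had a ratio above 1 and 16.2% an interval above 1. Phlda3, a p53 target that restrains AKT, had 2324 against 2097 reads and was the one gene past the 1.2-fold rule, at 1.22-fold higher (1.15 to 1.30). Zmat3, a p53 target that encodes an RNA-binding protein, was at 1.19 (1.15 to 1.23) on 6181 against 5721 reads. Mdm4, which encodes an inhibitor of p53, was at 1.16 (1.07 to 1.26) on 1128 against 1070 reads. Trp53 itself had 891 against 961 reads, with a ratio of 1.02 (0.932 to 1.12), within counting error of 1.

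A list of FOXO and stress response genes (Foxo1, Foxo3, Ddit3, Atf4, Trib3 and Chac1) gave 0 of 6 past the rule. Their median log2 ratio was 0.06. Foxo3, a factor known to induce both genes, had 775 against 734 reads, with a ratio of 1.16 (1.05 to 1.29). Foxo1, its relative, was 1.06-fold lower (1.02 to 1.1) on 4540 against 5288 reads. Atf4, the main factor of the integrated stress response, was 1.18-fold lower (1.07 to 1.29) on 818 against 1060 reads.

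**Figure D4:**
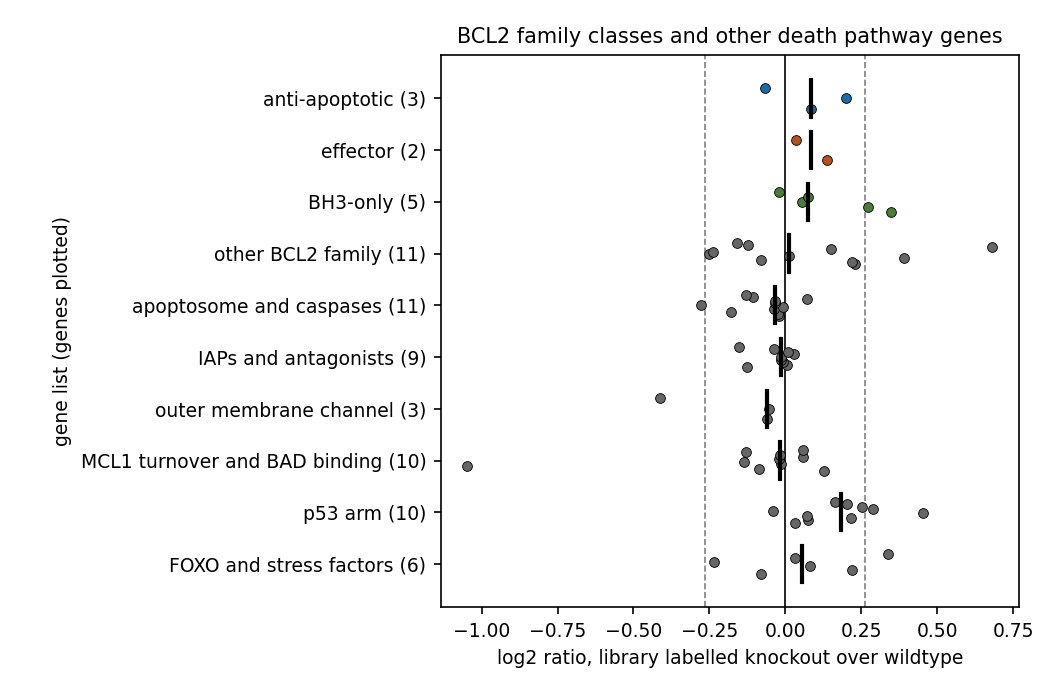
Log2 ratio (horizontal axis, labelled knockout over wildtype) of each gene of 1 CPM or more, by BCL2 family class (colour) and by list of other pathway genes (grey), with a black bar for each median and dashed lines at 1.2-fold. The p53 arm has the highest list median (0.18), and the medians of the 3 family classes lie at 0.08 or 0.09.

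CREB binds the cyclic AMP response element (CRE), so the promoters of the family were searched for it in RefSeq sequence of GRCm38.p6. Windows from 250 bases before to 50 bases after an annotated start were found for 9 of the 10 genes, 15 windows in all, and both strands were read. The full element TGACGTCA was in 0 of the 15 windows, against 1.79% of all 32851 promoter windows. The half-site TGACG, which reads as CGTCA on the other strand and is part of the full element, was in 3 of the 15 (20.0%) against 20.8% of all windows. A letter match is neither a bound site nor a cause, and a window without a match covers only these bases. The matches lay at Bcl2, Mcl1 and Bbc3, and their surroundings are shown with the half-site in capitals because the 3 genes with a match did not share a direction. The Bcl2 match lies 107 bases before the start (chr1:106714345-106714445, minus strand), the Bbc3 match 55 bases before a RefSeq start that lies inside the longer GENCODE gene (chr7:16309480-16309580, plus strand). The Mcl1 match lies 16 bases after the RefSeq start and before the first exon of the GENCODE annotation (chr3:95658725-95658753, plus strand).
Bcl2: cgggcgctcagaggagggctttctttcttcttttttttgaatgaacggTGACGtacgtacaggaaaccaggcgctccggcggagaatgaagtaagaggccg
Bbc3: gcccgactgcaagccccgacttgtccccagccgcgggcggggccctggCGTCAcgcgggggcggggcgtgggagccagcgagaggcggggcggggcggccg
Mcl1: agtcctcgcctgCGTCAgcacggccctaa

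With a half-site in their windows, Bbc3 had a ratio of 1.21, Bcl2 of 1.06 and Mcl1 of 0.954. Bcl2l1 (1.15) and Bax (1.1), the other genes whose intervals excluded 1, held no half-site in their windows. Whether a half-site bears on any of these ratios was not tested.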

How the data were processed

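The deposited files list raw counts of reads assigned uniquely to each gene symbol (per the file headers), with no normalization. Demultiplexing and counting tools (bcl2fastq and HTSeq) and the build mm10, which is GRCm38, are named in the submitters' processing notes. The sources used here do not give the aligner, annotation or strand setting. Unlisted genes were taken as 0 reads, and Adgre1 was found under its older symbol Emr1. The depth was 23938112 and 26525471 reads.

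Library sizes were scaled by trimmed mean of M-values (edgeR 4.0.16, R 4.3.3), and ratios used a prior count of 0.5. With 1 library per genotype no residual spread exists for the quasi-likelihood test of edgeR, so no test was run. Ratios carry exact conditional binomial (Clopper-Pearson) 95% intervals, levels Poisson (Garwood) intervals and pairs exact conditional odds ratio intervals. Exon lengths and 1-based positions came from GENCODE M21, and all 10 members matched. The filter was a mean of 1 CPM, and the call rule 1.2-fold with an interval excluding 1. The members, lists and rules were chosen with earlier results of these data known. Besides the members, the text names up to 3 genes per list with the largest ratios (10 CPM or more, interval excluding 1) and a fixed set of the best known. Results for some genes that this rule takes are left out. Alternatives were other scalings (totals, DESeq2 1.42.0 size factors, upper quartiles), a prior count of 5, thinning, other filters, fold limits and lengths. The steps were tested on simulated counts. Computations used Python 3.11.15, numpy 2.4.6, scipy 1.17.1, pandas 2.3.3 and matplotlib 3.10.9.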

Additional observations from a re-analysis of the deposited data

How the results depend on the processing

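All 67 recomputed ratios of the 10 genes stayed within their counting intervals under the 7 alternatives of scaling, prior count, thinning and filter. The median log2 ratio of the BH3-only genes rose from 0.08 to 0.16 at a mean of 10 CPM, which leaves Bbc3 and Pmaip1. The Bbc3 ratio ranged from 1.19 to 1.21 and that of Bcl2l1 stayed at 1.15. The number of members higher by the fold limit went from 1 to 0 with the deeper library thinned (1 as the median of 100 further draws, chosen after seeing the data), to 2 at a limit of 1.1-fold and to 0 at 1.5-fold. Thinning gave 3 other pathway genes lower in place of 2, and 1 to 3 over the further draws. The other pathway genes higher stayed at 2 with thinning and ran from 2 to 5 over the further draws. At 1.5-fold the other pathway genes gave 1 higher (Bmf) and 1 lower (Fbxw7), because the limit is stricter. Half-sites were found at 2 members instead of 3 when only the bases before the start were searched. These were Bcl2 and Bbc3, both with ratios above 1, so the mixed direction of the genes with a match rests on Mcl1. Of 30 recomputed levels per kilobase, 17 moved beyond counting error, all with another length. No paired analysis was possible because there is 1 library per genotype. Bcl2l11, Bad and Bid have too few reads to show a difference of the size seen for Bbc3.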

Other observations

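Another 5 ratios of gene pairs were computed after the values above were seen, from read counts within each library. Bcl2l1, for BCL-XL, stood to Mcl1 as 0.493 to 1 in the KO-labelled library and 0.409 to 1 in the wildtype library, a ratio of ratios of 1.2 (1.15 to 1.26). The anti-apoptotic genes thus differed among themselves by about as much as Bbc3 differed between libraries. Bax to Bak1 gave 1.07 (1.02 to 1.13), so the effectors did not keep one ratio within counting error. Of the p53-induced BH3-only genes, Bbc3 to Pmaip1 gave 1.16 (1.05 to 1.29). Bbc3 against the p53 targets Phlda3 and Zmat3 gave 0.989 (0.892 to 1.1) and 1.01 (0.925 to 1.11), intervals that include 1. Phlda3 and Zmat3 had the largest ratios of the p53 arm at 10 CPM or more, so this likeness follows from the choice of pairs. The p53 arm genes not paired here had ratios from 0.973 (Ccng1, 0.948 to 0.999) to 1.37 (Trp73, 0.779 to 2.46). Between these lay Trp53 (1.02), Cdkn1a (1.05), Mdm2 (1.05), Sesn2 (1.12, 1.04 to 1.21), Aen (1.15) and Mdm4 (1.16, 1.07 to 1.26). Whether Bbc3 moves with the p53 arm was not tested. With 1 library per genotype these intervals cover counting error only, and whether the differences recur between cultures was not tested.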
